A study of Mus musculus with 2 samples.

Results

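Ribosomal protein genes were taken as all rows of the gene expression matrix whose symbol is Rps or Rpl with a number, with an optional paralog letter or final l, together with Rplp0, Rplp1, Rplp2 and Rpsa. The rule gave 82 genes of 32285, of which 32 were named Rps and 50 Rpl. The name Rpl here takes in the 3 stalk proteins, and 5 of the 82 are paralog copies that end in l (Rps27l, Rpl36al, Rpl39l, Rpl3l and Rpl10l). Over all kept cells they gave 20.7% of all gene UMIs. A UMI, or unique molecular identifier, marks 1 captured RNA molecule. All but Rpl10l had at least 1 UMI, 75 of the 82 lay above 1000 CPM (UMIs per 1000000 gene UMIs), and 65 were among the 100 genes with the most UMIs. Among the highest were Rpl41 at 7441 CPM, Rpl23 at 5116 CPM, Rpl37a at 4750 CPM and Rps24 at 4725 CPM.

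A ribosome has a small subunit, which reads the mRNA, and a large subunit, which joins amino acids and lets the chain leave through an exit tunnel. Each subunit is built in the nucleolus from ribosomal RNA and many proteins, helped by assembly factors that do not stay in the ribosome. Most ribosomal protein mRNAs begin with a run of C and T bases at their 5′ end, the TOP element, through which the growth kinase mTOR and its partner Larp1 set their translation, and a few of the proteins have a second gene with a near-identical product.

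The study looked for macrophage and endothelial progenitors in the adult mouse aorta. Aortic cells of 2 male C57BL/6J mice aged 12 weeks were grown for 14 days in methylcellulose, and the viable cells of macrophage colonies were sequenced together in 1 droplet library with a 3′ kit. Cell suspensions carried lipid-anchored MULTI-seq tags, and the matrix held counts of 3 of them, named Cafum, Matrigel and Macrophages. The mice are not told apart in the matrix. The labels give 1 culture scheme and name no genotype or treatment that differs between the classes below. What each tagged suspension held is not given in the labels used here, so sameness of culture between suspensions is not known.

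After removal of called doublets and cells with more than 1 tag, 27916 of 34813 barcodes were kept, with a median of 12147 gene UMIs and a range from 1001 to 243243. Clusters made without the ribosomal protein genes were named from marker lists. Mast cell-like clusters held 21545 cells, fibroblast-like clusters 4165 and the macrophage-like cluster 2046, although the labels call the sample macrophage colony progenitors. The macrophage-like cluster, with 9 of 9 macrophage markers at 50 CPM or more, was led by Cd74, Mrc1 and the chemokine gene Cxcl2. Cells of at least 5500 UMIs were compared, and mast cell-like cells were divided by S and G2/M scores on cells thinned to that depth. This gave 15896 non-cycling, 1440 S and 2779 G2/M mast cell-like cells, 1502 macrophage-like and 3986 fibroblast-like cells, and left out 1430, 544 and 179 shallower cells of the mast, macrophage and fibroblast classes, respectively. Non-cycling means that neither score was positive, so dividing cells between mitosis and S are not told apart there from resting cells. Of the mast cell-like cells, 2203 (11.0%) lay within 0.05 of the score limit between non-cycling and cycling. Cells near the limit between S and G2/M were not counted. Since the 5 classes are parts of 1 library, no replicate check was possible and no p-value was computed. Intervals are 95% intervals that cover counting error only. Of the macrophage-like cells 97.4% carried the Macrophages tag, so class and tagged suspension cannot be told apart there. The Cafum tag was on 72.9%, 90.1% and 80.9% of non-cycling, S and G2/M mast cell-like cells. The Matrigel tag was on 63.3% of fibroblast-like cells but on 0.403% of non-cycling mast cell-like cells. Class and tagged suspension are thus largely confounded in that comparison too.

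Promoter windows from RefSeq (build GRCm38.p6) were found for 62 of the 82 members. A run of 8 or more C and T bases within 5 bases of an annotated start was present in 37.1% of these members and in 11.4% of the 27025 genes in the same table. The letters CTTTC, on either strand within 20 bases of the start, were in 35.5% of members and 11.8% of all genes. The longer CTCTTTC, which contains CTTTC, was in 12.9% and 1.251%. In the whole window from 250 bases before to 50 bases after the start, CCGGAAG on either strand, the core that ETS factors such as GABP bind, was in 41.9% of members and 9.93% of all genes. AAGATGGC, a YY1 core, was in 8.06% and 3.19%. A match describes letters, not a bound site, and annotated starts may lie some bases from the start in use.

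The paralog pairs on which the results below turn are shown first, from 40 bases before to 15 bases after an annotated start, with the longest C and T run that comes within 5 bases of the start in capitals. Rps27 lies at chr3:90213634-90213688 on the minus strand and its copy Rps27l at chr9:66946046-66946100 on the plus strand. Rpl36a lies at chrX:134585614-134585668 (plus) and Rpl36al at chr12:69184053-69184107 (minus). Rpl39 lies at chrX:37085208-37085262 (minus) and Rpl39l at chr16:10170188-10170242 (plus).
Rps27: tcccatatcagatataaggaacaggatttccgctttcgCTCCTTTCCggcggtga
Rps27l: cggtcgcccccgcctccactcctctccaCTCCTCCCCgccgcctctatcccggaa
Rpl36a: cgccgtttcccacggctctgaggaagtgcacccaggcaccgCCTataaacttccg
Rpl36al: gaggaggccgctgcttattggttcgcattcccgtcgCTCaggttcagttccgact
Rpl39: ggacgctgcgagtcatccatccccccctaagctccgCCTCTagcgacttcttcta
Rpl39l: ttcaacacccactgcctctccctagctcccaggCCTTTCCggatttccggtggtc

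The run at Rps27 spans 9 bases and crosses its annotated start. That of Rps27l has the same length but ends 4 bases before the start. The next set holds the members with the 5 highest fibroblast-like to mast ratios, Rpl4 at chr9:64173347-64173401, Rplp0 at chr5:115559427-115559481, Rps2 at chr17:24720023-24720077, Rpl12 at chr2:32961672-32961726 and Rpsa at chr9:120127726-120127780, all on the plus strand.
Rpl4: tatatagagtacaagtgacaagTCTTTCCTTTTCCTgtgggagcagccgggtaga
Rplp0: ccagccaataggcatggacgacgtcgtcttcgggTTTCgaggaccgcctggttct
Rps2: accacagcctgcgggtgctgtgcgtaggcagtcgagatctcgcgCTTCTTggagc
Rpl12: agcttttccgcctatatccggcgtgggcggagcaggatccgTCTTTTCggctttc
Rpsa: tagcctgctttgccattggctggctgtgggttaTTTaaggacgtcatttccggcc

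The first question was how much of the mRNA of each class came from ribosomal protein genes. Fibroblast-like cells had the highest share, 22.9% of gene UMIs, with a middle cell at 22.9% and 5th and 95th percentiles at 15.3% and 32.0%. Mast cell-like cells had 20.1% when non-cycling, 21.2% in S and 20.8% in G2/M, with middle cells at 19.9%, 21.3% and 20.8%. Macrophage-like cells had the lowest share, 13.1%, with a middle cell at 12.0% and percentiles at 6.95% and 21.6%. The ranges over cells overlapped between all classes, as the plot of shares by class shows. Counts per cell differed more than shares. The middle cell held 2125 ribosomal protein UMIs in non-cycling mast cell-like, 4290 in S, 4080 in G2/M, 1079 in the macrophage class and 6713 in the fibroblast class, whose median gene UMIs were 10658, 20240, 19495, 8911 and 30432. Across cells of 1 class the share was only weakly related to the logarithm of gene UMIs, with Pearson correlations, given as a description, of 0.07 in non-cycling, -0.18 in S and 0.023 in G2/M mast cells, 0.12 in the macrophage class and -0.15 in the fibroblast class. In S the share was 22.7% in cells of 8000 to 12000 UMIs and 20.6% in cells of 24000 to 40000 UMIs.

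**Figure D1:**
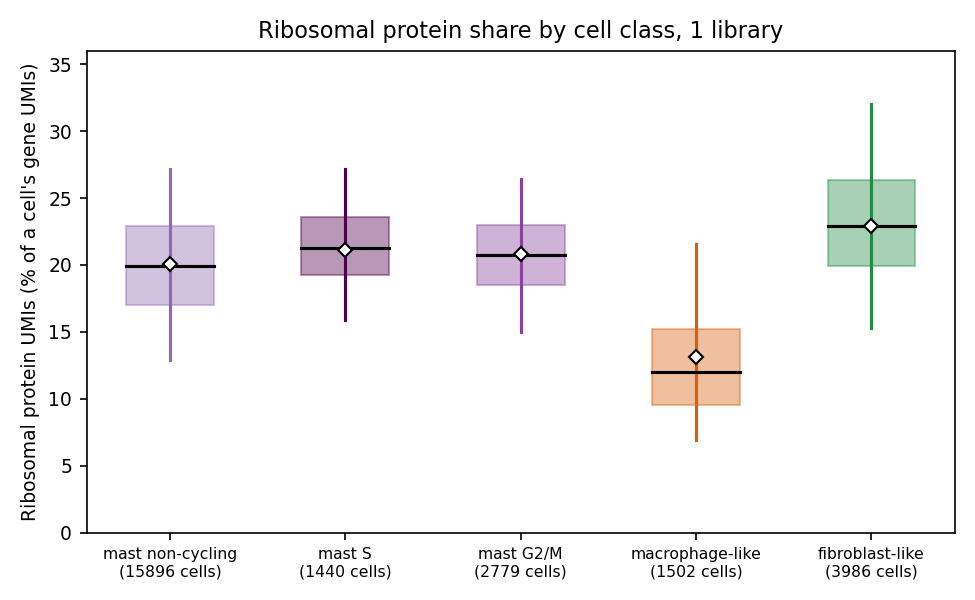
Ribosomal protein UMIs as a percentage of a cell's gene UMIs (vertical axis) in the 5 cell classes of 1 library. Boxes span the 25th to 75th percentile of cells, thick bars the median, lines the 5th to 95th percentile, and diamonds the share of summed UMIs. Macrophage-like cells sit lowest, with a median of 12.0%, and fibroblast-like cells highest, with 22.9%.

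Against non-cycling mast cell-like cells the share was 1.053-fold (1.052–1.054) in S and 1.035-fold (1.035–1.036) in G2/M. The phases lay largely in different clusters. Non-cycling cells were mostly in mast clusters 0 (7628 cells) and 1 (6147), with 2117 in cluster 2. Clusters 0 and 1 held few cycling cells, 128 and 101 in S and 72 and 73 in G2/M. Of the S cells 847, and of the G2/M cells 1578, were in cluster 2, and 364 and 1056 were in mast cluster 5, which was led by histone genes and had ribosomal protein shares of 21.2% and 21.3%. Without mitochondrial genes and the 20 genes with the most UMIs these ratios were 1.022 and 1.002. This small difference was not found inside clusters, a comparison chosen after seeing the data. In mast cluster 0, led by the receptor genes Mrgprb1 and Mrgprb2, the share was 18.4% in non-cycling, 18.1% in S and 18.0% in G2/M cells. In mast cluster 1, led by Ly6a and Ifitm1, it was 21.2%, 21.1% and 19.9%. In mast cluster 2, led by the protease gene Ctsg with the cell cycle genes Cenpa and Ccnb2, it was 22.1%, 21.5% and 20.5%. Within these clusters S cells were therefore at 0.984, 0.997 and 0.976 of the non-cycling share and G2/M cells at 0.977, 0.942 and 0.930. The G2/M cells of cluster 1 held 5754 CPM of hemoglobin genes against 177 CPM in its non-cycling cells, and the part of this was not tested. In ribosomal protein share, cluster 0 was lower than clusters 1 and 2 in every phase. Clusters 1 and 2 differed from each other by less than the phases did within cluster 2. Fibroblast-like cells gave 22.9% when non-cycling, 23.4% in S (65 cells) and 22.7% in G2/M (280 cells).

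**Figure D2:**
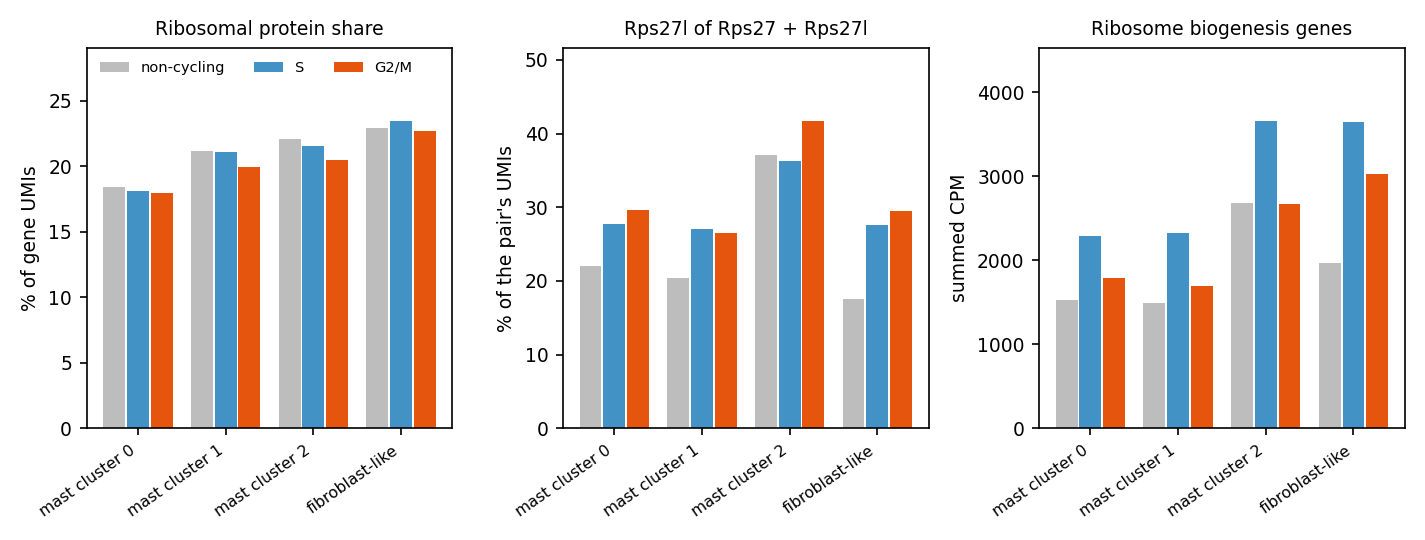
Values of non-cycling, S and G2/M cells inside 3 mast cell-like clusters and the fibroblast-like class, as bars of summed UMIs. Left, ribosomal protein share of gene UMIs, which differs little by phase (18.4%, 18.1% and 18.0% in cluster 0). Middle, Rps27l as a percentage of Rps27 and Rps27l UMIs, highest in G2/M except in cluster 1. Right, summed CPM of ribosome biogenesis genes, highest in S.

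Single members moved in both directions under this near-constant sum. The background of the comparison was that 14.9% of 5696 genes with a mean of at least 20 CPM were 1.5-fold or more higher in S and 9.02% were 1.5-fold or more lower. Of the 79 members at that level, 1 was higher by this rule and 0 were lower, with a median ratio of 1.06 beside 0.992 over all genes. In G2/M the background was 12.3% higher and 8.35% lower of 5662 genes, and 2 of 79 members were higher and 0 lower, with medians of 1.06 and 1.01. Of the 79 members, 68 in S and 70 in G2/M lay within 1.25-fold of the ratio of their sum. The share of all genes inside this window was not counted, so whether members stand out by it is not known.

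Among small subunit genes, Rps2, whose protein lies by the mRNA entry channel, had 1943 CPM in non-cycling, 3044 CPM in S and 2927 CPM in G2/M mast cell-like cells, ratios of 1.57 and 1.51. It was the only member past 1.5-fold in S. Rps19, the gene most often mutated in Diamond-Blackfan anaemia, had 1504, 2102 and 2117 CPM, or 1.40 and 1.41. Rpsa, which encodes the small subunit protein also called the laminin receptor, had ratios of 1.34 and 1.38. In the other direction Rps9 had 3728, 2707 and 2914 CPM, ratios of 0.73 and 0.78. Rps27 (0.85 and 0.83), Rps14 (0.87 and 0.88) and Rps26 (0.90 and 0.86) were also lower. Rps2 overlaps the non-coding gene Snhg9 on the other strand, and use of strand in the counting is not given in the sources used here.

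Among large subunit genes, Rpl14 was at 1.36 of its non-cycling level in S and 1.26 in G2/M, and Rpl12, at the base of the stalk, at 1.36 and 1.21. Rpl10, a protein that joins the large subunit late in its assembly, had 3789 CPM in non-cycling, 2656 CPM in S and 2757 CPM in G2/M cells. Its ratios of 0.70 and 0.73 were the lowest of the 79. Rpl37a was at 0.81 in both. The median ratio was 1.09 for small and 1.06 for large subunit genes in S, and 1.08 and 1.03 in G2/M.

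Part of this order was also seen inside clusters. In cluster 0, S cells had ratios to non-cycling cells of 1.31 for Rps2, 1.24 for Rpl12, 1.23 for Rpl4 and 1.22 for Rps19, and of 0.80 for both Rpl10 and Rps9. In cluster 2, Rpl10 (0.85) and Rps9 (0.86) were again the lowest in S, but Rps2 was at 1.02 and Rps19 at 1.00. In G2/M cells of cluster 2, 1 of 79 members, Rps27l, was above 1. The median ratio there was 0.929 for members and 1.05 for all genes, and the share of all genes above 1 was not counted. No member was past 1.5-fold in S or G2/M within clusters 0, 1 or 2. The background in clusters 0, 1 and 2 was 6.18%, 6.2% and 4.89% of genes higher and 1.43%, 2.71% and 0.323% lower in S. In G2/M it was 3.91%, 4.59% and 3.55% higher and 0.705%, 1.57% and 0.734% lower.

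**Figure D3:**
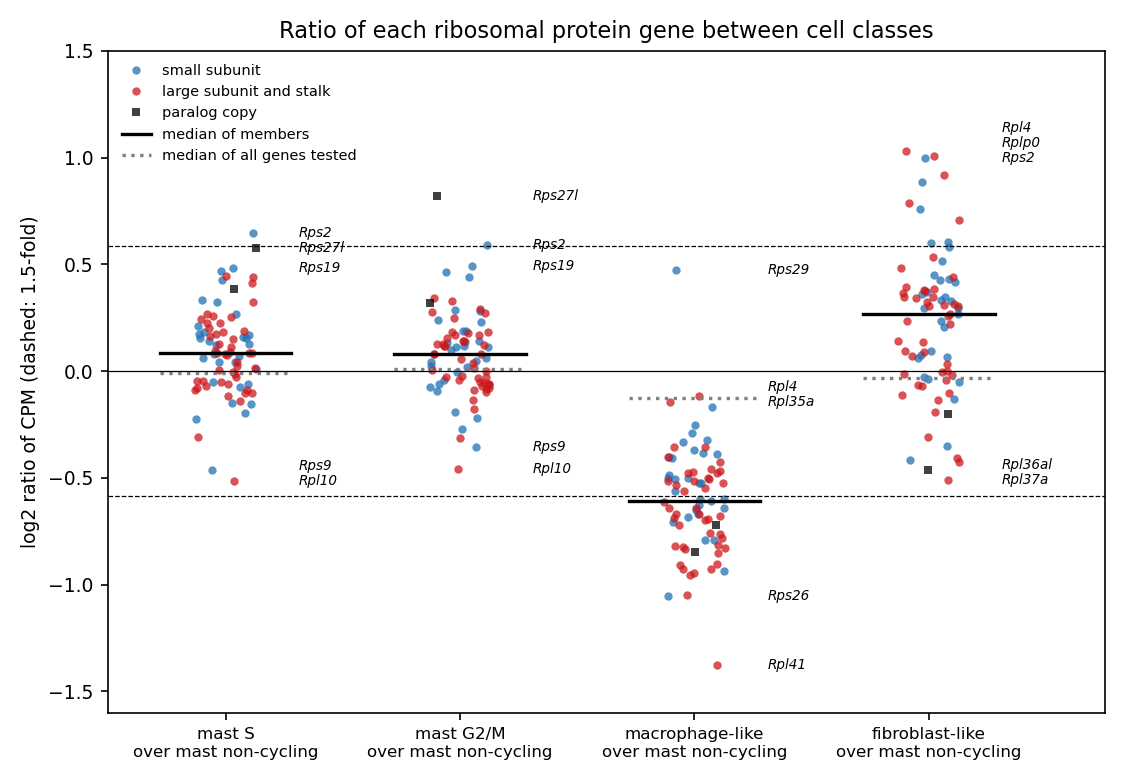
log2 ratio of CPM (vertical axis) of each ribosomal protein gene at a mean of 20 CPM or more, in 4 cell classes over non-cycling mast cell-like cells. Points are genes, black bars medians of the members, dotted grey bars medians of all genes, and dashed lines 1.5-fold. Members spread around 0 in S and G2/M, lie below 0 in macrophage-like cells except Rps29, and reach 2.04-fold (Rpl4) in fibroblast-like cells.

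Macrophage-like cells had 0.653 of the non-cycling mast share (0.652–0.654). The background was 26.4% of 5966 genes 1.5-fold or more higher and 28.4% lower. Of 79 members 0 were higher and 42 (53.2%) lower, and 78 of 79 had a ratio under 1. The share of all genes under 1 was not counted. The median member was at 0.656, and the median of all genes was itself shifted to 0.916 (-0.13 on the log2 scale). Relative to that median gene the share ratio was 0.713 and 25 members were past 1.5-fold. Small subunit genes had a median of 0.695 and large subunit genes of 0.629. Rps29, a small zinc-binding protein, was the exception at 5098 CPM against 3672 CPM, a ratio of 1.39. Rpl4 (0.92), Rpl35a (0.91) and Rps25 (0.84) were also among the highest. The lowest was Rpl41, the smallest protein of the ribosome, with 3080 CPM against 7984 CPM, a ratio of 0.39. Rps26 and Rpl39, which lines the exit tunnel, were both at 0.48, and Rpl18, Rpl37a and Rps7 were at 0.52.

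Transcripts listed as markers of other cell types were found in the macrophage-like droplets, and their part was only partly tested. The 7 mast cell markers summed to 11595 CPM there and to 65504 CPM in non-cycling mast cell-like cells, and each was at 0.17 to 0.21 of its level in all mast cell-like cells. With that background subtracted, the ribosomal protein share was 11.4%, below the 13.1% measured. The 4 erythroid markers summed to 2719 CPM, with 2 of 4 at 50 CPM or more, and to 132 CPM in non-cycling mast cell-like cells. The megakaryocyte list summed to 2816 CPM against 174 CPM, with 1 of 4 markers at 50 CPM or more. Of this sum 2775 CPM came from 1 gene. The neutrophil list summed to 431 CPM against 2.01 CPM (2 of 6 markers) and the dendritic cell list to 178 CPM against 1.28 CPM (1 of 5). Of the dendritic cell sum 156 CPM came from 1 gene. Mitochondrial genes gave 4.42% of UMIs against 2.23%. The part of these transcripts, other than those of mast cells, was not tested, nor whether macrophage-like cells express them themselves. Allowing at most 5% mitochondrial UMIs moved the ratio to 0.678. Keeping cells with more than 1 tag gave 0.734 with 15 members lower. Keeping called doublets, in a clustering that also held cells with more than 1 tag, gave 0.789 with 2 members lower. The count of 42 thus rests on these removals, and keeping called doublets alone was not tried. It was 36 with at most 5% mitochondrial UMIs, 46 at 8000 to 16000 UMIs per cell and 62 with the mast background subtracted.

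Fibroblast-like cells had 1.139 of the non-cycling mast share (1.138–1.139). The background was 27.8% of 6171 genes higher and 27.4% lower by 1.5-fold. Of 79 members 10 (12.7%) were higher and 0 lower, smaller shares than the background, with a median of 1.20 beside 0.979 over all genes. Among the members past 1.5-fold were Rpl4, Rplp0, Rps2, Rpl12, Rpsa, Rpl3, Rpl10a, Rps19 and Rps6. Rps20 lay just under the limit at 1.49. Rpl4, a large subunit protein that reaches into the exit tunnel, had 323 CPM in the non-cycling mast class and 658 CPM in the fibroblast class, a ratio of 2.04. Rplp0, the scaffold of the stalk that recruits translation factors, had 1366 and 2746 CPM (2.01), Rps2 1943 and 3881 CPM (2.00), Rpl12 1767 and 3339 CPM (1.89) and Rpsa 1540 and 2846 CPM (1.85). Rpl3, which lies close to the peptidyl transferase centre and overlaps Syngr1 on the other strand, had 829 and 1431 CPM (1.73). The other 2 stalk genes, Rplp1 and Rplp2, had 1.30 and 1.17. At the low end Rpl37a was at 0.70, Rpl36al at 0.72, Rpl27 and Rpl41 at 0.75, and Rps9 at 0.78. Small subunit genes had a median of 1.26 and large subunit genes of 1.19. Among cells with the Cafum tag alone, 356 of them fibroblast-like, the share ratio was 1.076 and 4 members were past 1.5-fold. The mast cell markers summed to 22249 CPM in those cells, 3908 CPM in fibroblast-like cells with the Matrigel tag and 5734 CPM in the whole class, and their part in the smaller ratio was not tested. At 8000 to 16000 UMIs per cell the share ratio was 1.25, with 17 members past 1.5-fold.

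The fibroblast-like ratios went with annotated mRNA length, which the rule did not use. Over 77 members that are not paralog copies, the logarithm of the median length of annotated coding transcripts (GENCODE M21) had a Pearson correlation of 0.42 and a Spearman correlation of 0.47 with the log ratio. The 25 shortest, of up to 630 bases, had a median ratio of 1.07, and the 26 longest, of 937 bases or more, 1.30. For the same members Spearman's rho was 0.23 in S, 0.26 in G2/M and 0.13 in macrophage-like cells. Over the other genes tested rho was 0.14 in the fibroblast-like comparison (5974 genes), -0.24 in S, -0.27 in G2/M and 0.23 in macrophage-like cells. The members thus had the opposite sign to the other genes in S and G2/M and a smaller rho in macrophage-like cells. These are descriptions across genes of 1 library, which are not replicates. UMIs of a 3′ kit count mRNA ends, so CPM is not scaled by length. The annotated median length reached 5130 bases for Rps15a and 3706 bases for Rps20, and the transcripts in use in these cells were not determined.

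Paralog use was then compared as the share of a pair's UMIs that came from the copy. Rps27l, known as a gene that p53 activates, differed most by phase, in percentage points, among the pairs described here. It gave 24.6% of Rps27 and Rps27l UMIs in non-cycling (24.5–24.7), 36.3% in S (35.9–36.6) and 41.1% in G2/M mast cell-like cells (40.8–41.3). It gave 18.5% in the macrophage class and 18.8% in the fibroblast class. Mast background alone would give 150 of the 357 CPM of Rps27l in the macrophage class and 75.6 of 559 CPM in the fibroblast class. The part of this background in the 2 shares was not tested. Both genes moved in mast cell-like cells. Rps27l had 643, 958 and 1137 CPM, ratios of 1.49 and 1.77, while Rps27 had 1970, 1684 and 1631 CPM. In cells with at least 10 UMIs of the pair, the median share was 21.1% in non-cycling, 35.5% in S and 40.8% in G2/M cells. The quartiles of the G2/M cells (34.2% to 47.5%) lay above those of the non-cycling cells (14.3% to 29.6%).

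The same order was found in other sets of cells for most comparisons. In cluster 0 the Rps27l share was 22.0% in non-cycling, 27.8% in S (128 cells) and 29.7% in G2/M cells (72 cells). In cluster 1 it was 20.4%, 27.0% (101 cells) and 26.5% (73 cells). In cluster 2, whose non-cycling cells already had 37.1%, S cells had 36.3% and G2/M cells 41.7%. In fibroblast-like cells, a separate class, it was 17.5% (17.4–17.7) in non-cycling, 27.6% (26.6–28.6) in S and 29.5% (29.0–30.0) in G2/M cells, and Rps27l there was at 528, 741 and 813 CPM. G2/M cells thus had a higher share than non-cycling cells in each of these 4 sets, and S cells in 3 of the 4. Among p53 targets of the growth and stress list, Cdkn1a had 366 CPM in non-cycling, 309 CPM in S and 268 CPM in G2/M mast cell-like cells. Mdm2 had 51.1, 42.9 and 49.6 CPM, and Ccng1 65.5, 67.8 and 88.2 CPM.

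**Figure D4:**
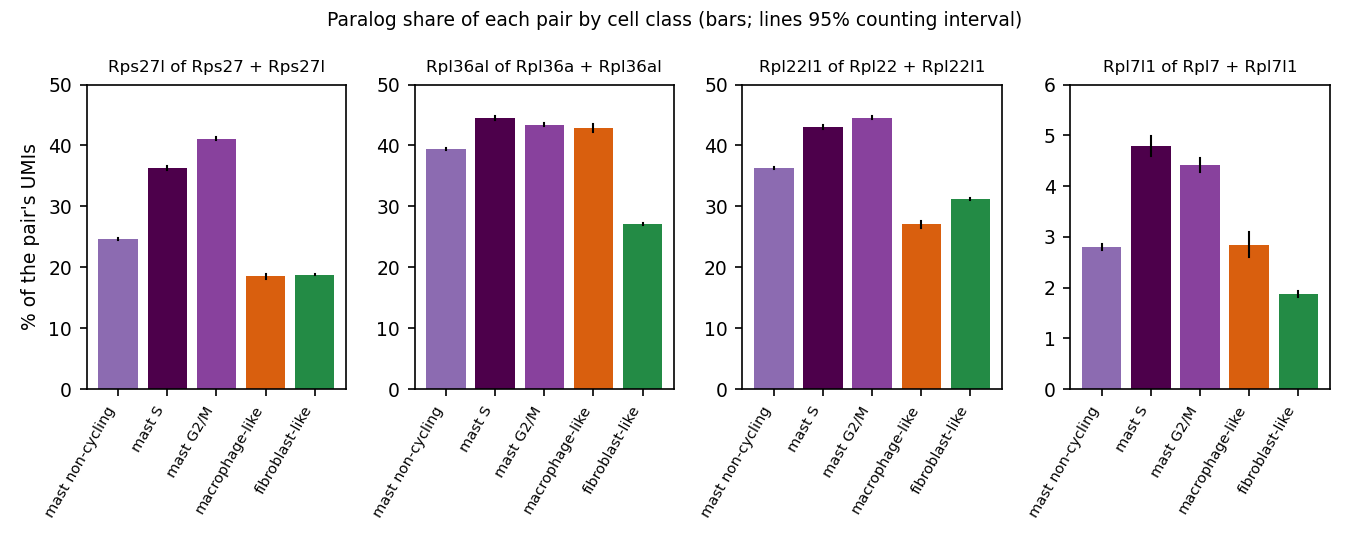
Share of a pair's UMIs that came from the paralog copy (vertical axes, in percent) in 5 cell classes, with 95% counting intervals as lines. The right panel has its own scale. Rps27l goes from 24.6% in non-cycling to 41.1% in G2/M mast cell-like cells, and Rpl36al is lowest in fibroblast-like cells, at 27.1%.

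Rpl36al followed another order. It gave 39.4% of Rpl36a and Rpl36al UMIs in non-cycling, 44.5% in S, 43.4% in G2/M mast cell-like and 42.9% in macrophage-like cells, but 27.1% in fibroblast-like cells. In fibroblast-like cells Rpl36a was at 1694 CPM and Rpl36al at 630 CPM, against 1336 and 869 CPM in non-cycling mast cell-like cells. Mast background alone would give 182 of the 527 CPM of Rpl36al in macrophage-like cells and 91.6 of 630 CPM in fibroblast-like cells. The part of this background in the pair shares was not tested. Within mast clusters the phases were close. In cluster 0 non-cycling, S and G2/M cells had 37.5%, 39.6% and 38.1%, in cluster 1 38.6%, 39.2% and 39.9%, and in cluster 2 43.9%, 45.1% and 44.8%. Fibroblast-like cells with the Cafum tag, whose mast cell markers summed to 22249 CPM, had 30.0%, and those with the Matrigel tag, at 3908 CPM of these markers, 27.1%. The part of mast cell RNA in this difference was not tested. Among fibroblast-like cells it was 26.3% in non-cycling, 33.3% in S and 32.4% in G2/M cells.

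Rpl39l, which replaces Rpl39 in the exit tunnel of ribosomes of male germ cells, was near the floor. It gave 0.202% of the pair in non-cycling, 0.246% in S and 0.247% in G2/M mast cell-like cells, or 9.46, 11.1 and 11.1 CPM. It was found in 1153 of 27916 cells, with up to 28 UMIs in 1 cell. Fibroblast-like cells had 1.69 CPM, where mast background alone would give 0.970 CPM. Macrophage-like cells had 3.85 CPM, with 1 cell holding 28 of 61 UMIs. With the Macrophages tag alone they had 2.02 CPM, beside a mast background of 1.93 CPM. After thinning, 3.50% of the non-cycling mast class, 1.07% of the macrophage class and 0.778% of the fibroblast class had an Rpl39l UMI. Before thinning these shares were 4.76%, 1.53% and 2.18%.

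Rpl3l, the copy of Rpl3 used in heart and skeletal muscle, had 29 UMIs in 28 of 27916 cells, against 447646 UMIs of Rpl3. These were 15 UMIs in non-cycling, 0 in S and 3 in G2/M mast cell-like cells, 3 in the macrophage class and 7 in the fibroblast class. The 0 in S allows up to 0.0980 CPM, so no difference between classes was detectable at this depth. Rpl10l, the autosomal copy of Rpl10 known from testis, had 0 UMIs in all classes, which allows up to 0.00685 CPM over all kept cells, while Rpl10 had 3277 CPM.

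Copies outside the naming rule were described in the same way. Rpl22l1 gave 36.3% of Rpl22 and Rpl22l1 UMIs in non-cycling, 43.1% in S, 44.5% in G2/M mast cell-like, 27.0% in the macrophage class and 31.2% in the fibroblast class. Inside clusters the order of phases varied, with 32.2%, 40.8% and 36.5% in non-cycling, S and G2/M cells of cluster 0, 35.2%, 42.6% and 35.9% in cluster 1 and 44.4%, 43.6% and 46.4% in cluster 2. Rpl7l1 gave 2.80%, 4.78%, 4.41%, 2.84% and 1.87% of the pair with Rpl7. In contrast, Rps27rt, a near-identical copy of Rps27, kept to 3.81%, 3.86%, 3.89%, 4.25% and 3.79%. Reads of such near-identical copies may be shared out by the counting, so their levels are uncertain.

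Other genes of the ribosome pathway were counted from lists chosen with earlier results of these data known. Ribosome biogenesis factors differed most between phases. The background was 14.9% of genes higher and 9.02% lower in S, and 12.3% and 8.35% in G2/M. In S, 29 of 34 measured factors were 1.5-fold or more higher and 1 lower, with a median ratio of 2.24. In G2/M, 20 of 31 were higher and 0 lower, with a median of 1.69. Their summed level was 1744 CPM in non-cycling, 3629 CPM in S and 2858 CPM in G2/M cells. Nop56 (17.4, 76.6 and 38.7 CPM) and Nop58 (40.5, 152 and 101 CPM), core proteins of the snoRNA particles that methylate ribosomal RNA, were among the highest. Nucleolin (Ncl), a major nucleolar protein, had 289, 628 and 499 CPM. Inside clusters the S ratio of this list was smaller but still above 1, with medians of 1.55, 1.65 and 1.36 in clusters 0, 1 and 2 and 1.81 in fibroblast-like cells. In G2/M it was 1.16, 1.16 and 0.984 in the mast clusters. In macrophage-like cells 5 of 25 were higher and 1 lower, and in fibroblast-like cells 8 of 28 were higher and 1 lower, with medians of 1.02 and 1.19. Over all genes 26.4% and 27.8% were higher in these comparisons, so neither upward count stood clear of the background.

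Mitochondrial ribosomal protein genes, which build the separate ribosome of mitochondria, had 27 of 65 higher and 0 lower in S with a median of 1.45, and 23 of 62 higher and 0 lower in G2/M with a median of 1.43, beside backgrounds of 14.9% and 12.3% higher. Within mast clusters 0, 1 and 2 this was largely absent, with 2 of 59, 7 of 61 and 1 of 68 higher in S (medians 1.10, 1.15 and 1.07) and 2 of 55, 2 of 60 and 0 of 68 in G2/M (1.09, 1.04 and 1.04). In fibroblast-like cells 29 of 66 were higher in S than in non-cycling cells and 0 lower, with a median of 1.46. The background there was 19% of 6368 genes higher and 12.2% lower, with a median of 1.05. In macrophage-like cells 2 of 57 were higher and 31 lower, with a median of 0.647, close to that of the cytosolic members. Other TOP mRNAs, which encode elongation and initiation factors, had medians of 0.967 in S, 0.961 in G2/M, 0.777 in the macrophage class and 1.44 in the fibroblast class, with 4, 2, 0 and 10 of 22 past 1.5-fold upward and 0, 0, 5 and 0 downward. The background was 14.9%, 12.3%, 26.4% and 27.8% upward and 28.4% downward in the macrophage class, so the count in S was near it and the downward count in the macrophage class below it. In the fibroblast class, the 10 included Eef1g at 2.35 and Npm1 at 2.18. Fau, whose product carries a small subunit protein, was at 0.76.

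Host genes of small nucleolar RNAs stood highest in fibroblast-like cells, with 6 of 8 measured past 1.5-fold, 0 lower and a median of 2.63. The background there was 27.8% of genes higher and 27.4% lower. Gas5 had 398 CPM in the non-cycling mast class and 1014 CPM in the fibroblast class. Zfas1 had 57.8 and 183 CPM and Snhg6 43.9 and 150 CPM. RNA polymerase I genes had 5 measured of 14 in the matrix, with 0 past 1.5-fold in S or G2/M and medians of 1.32 and 1.17. In macrophage-like cells 2 of 5 were lower, and in fibroblast-like cells 1 of 5, beside 28.4% and 27.4% of all genes. The growth and stress list had 3 of 15 higher in S and 0 in G2/M, where 14.9% and 12.3% of all genes were. It had 5 of 15 higher and 2 lower in the macrophage class, beside 26.4% and 28.4% of all genes. In the fibroblast class 3 of 17 were higher and 4 lower, beside 27.8% and 27.4%. These counts were near or below the background. The list's largest ratio in fibroblast-like cells was 5.08, for Eif4ebp1, the translation repressor that mTOR controls, at 44.1 and 224 CPM.

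**Figure D5:**
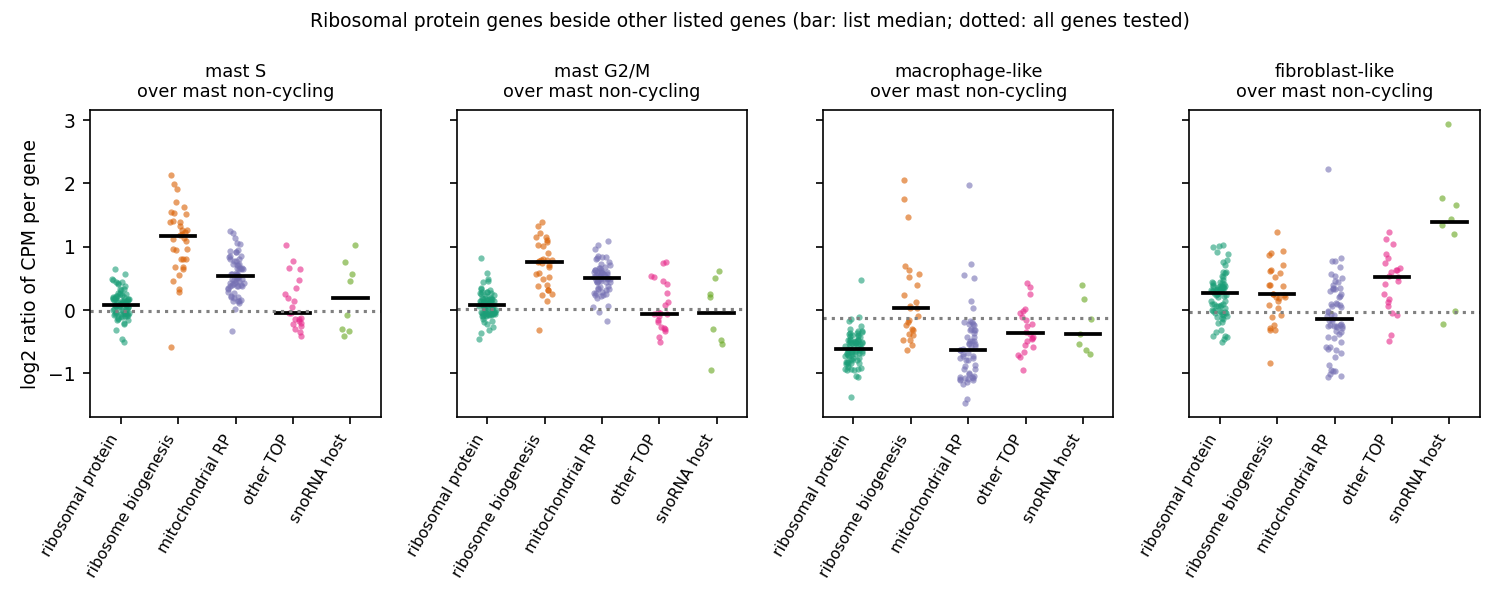
log2 ratio of CPM per gene (vertical axis) for ribosomal protein genes and 4 other lists, in 4 cell classes over non-cycling mast cell-like cells. Points are genes at a mean of 20 CPM or more, black bars list medians, and dotted lines the median of all genes. Biogenesis factors stand highest in S (median 2.24-fold) and snoRNA host genes in fibroblast-like cells (2.63-fold), while ribosomal protein genes lie at 1.06-fold and 1.20-fold.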

How the data were processed

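The deposited values are raw UMI counts of each gene in each barcode. Cell Ranger 7.0.0 wrote them, per the file headers. STAR, R 4.1.3, Seurat 4.1.1 and the build mm10 are named in the submitters' processing notes with no role. The annotation, the counting of introns and the use of strand are not given in the sources used here. Ribosomal protein members and lists were chosen with earlier results of these data known. Genes named are, by rule, the 5 with the highest CPM, the 5 highest and 5 lowest ratios in each comparison, and every member of a paralog pair. Others were chosen after their values were seen. The values of some genes under this rule are not reported here.

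Barcodes were kept with at least 500 genes, 1000 UMIs and at most 10% mitochondrial UMIs (33964 of 34813, with 593248944 gene UMIs in the matrix). Scrublet in scanpy 1.11.5 called 3245 doublets (9.32%, of 27.9% awaited at the loading), so doublets remain. A further 2839 cells with more than 1 tag were removed, a step added after seeing the data. Cells were clustered (leidenalg 0.10.2, resolution 0.5) without ribosomal protein, mitochondrial and listed genes. A cluster was named for the marker list with the highest share of markers at 50 CPM or more and 4 times the lowest cluster. Phases came from 43 S and 54 G2/M genes on cells thinned to 5500 UMIs. Counts were summed per class, CPM taken over 1000000 gene UMIs, and ratios given exact conditional intervals. Intervals of shares are Clopper-Pearson, of CPM Poisson, at 95%. A level of 0 was given a limit of 3 counts. Genes with a mean of 20 CPM or more over both classes were compared at 1.5-fold. The fold count was tested on simulated data. Alternatives covered cell filters, doublets, depth, denominators, phases, tags and subtraction of mast cell RNA. The second sample, a library of tags, was not used here.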

Additional observations from a re-analysis of the deposited data

How the results depend on the processing

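Share ratios are given in the order S, G2/M, macrophage-like and fibroblast-like over non-cycling mast cell-like cells, with main values of 1.053, 1.035, 0.653 and 1.139 and counts of members past 1.5-fold of 1, 2, 42 and 10. All 4 ratios kept their direction in every alternative except within mast clusters. There the S and G2/M ratios turned below 1, at 0.984 and 0.977 in cluster 0, 0.997 and 0.942 in cluster 1 and 0.976 and 0.930 in cluster 2, with 0 members past 1.5-fold, and Rps2 in G2/M turned to 0.923 in cluster 2. The cause was not tested. At most 5% mitochondrial UMIs gave 1.035 in G2/M (1 member), 0.678 (36) and 1.138. With called doublets kept the ratios were 1.048, 0.789 and 1.144 in S, macrophage-like and fibroblast-like cells, with 1 member in G2/M and 2 in macrophage-like cells. That clustering also held the cells with more than 1 tag. Clustering at resolution 1 gave 1.068, 1.050, 0.658 (41 members) and 1.157 (11). The mast class differed there, since a cluster of 2638 cells with 7 of 7 mast cell markers was left unnamed. Its ribosomal protein share was 21.5%. Without mitochondrial genes the ratios were 1.051, 1.033, 0.668 (38 members) and 1.125 (9), and without the 20 highest genes also 1.022, 1.002 (1), 0.652 and 1.099 (8). The mean of per-cell shares gave 1.073, 1.041, 0.640 and 1.163. At 8000 to 16000 UMIs they were 1.121 (2 members), 1.027 (1), 0.632 (46) and 1.2501 (17). With the Cafum tag alone they were 1.037, 1.029 (1) and 1.076 (4), with too few macrophage-like cells for a value. Subtracting mast cell RNA gave 0.566 (62 members) and 1.152 (11). Cycling set by 3 of 6 proliferation genes gave 1.033 (2), 1.032 (1), 0.649 (43) and 1.131 (8). Scores from all UMIs gave 1.066 (2), 1.042, 0.656 and 1.144 (11). With no minimum CPM 2, 2, 44 and 11 members passed, and at 2-fold 0, 0, 3 and 2. An alternative chosen after seeing the data was cells with more than 1 tag kept (1.034 in G2/M, 0.734 with 15 members, 1.149). Others chosen so were ratios to the median gene (1.061 with 2 members, 1.028 with 1, 0.713 with 25, 1.163 with 11), cluster 7 left out (1.141) and the clusters above. No paired analysis was possible because the classes come from 1 library. Depth limits Rpl3l, Rpl10l and Rpl39l, and 1 library leaves the spread between cultures unknown.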

Other observations

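Clusters that enter no comparison, or are small, had other ribosomal protein shares. Cluster 7, of 92 cells led by Kctd16, Sdk1 and Kcnab1, was named fibroblast-like from 5 of 6 markers, but its mast cell markers summed to 19891 CPM and its fibroblast markers to 4324 CPM. At resolution 1 a cluster of 92 cells with the same leading genes was named mast cell-like, so its name is uncertain. In cluster 7 the middle cell had 4.20% ribosomal protein UMIs and the summed UMIs had 8.17%, with 6.87% of UMIs from the nuclear transcript Malat1 (2.97% in the fibroblast-like class). The unnamed cluster 6 of 136 cells, led by Calca, had 14.2% at a median of 2681 UMIs, and the unnamed cluster 8 of 24 cells, with Cdh19 among its leading genes, had 15.6%. Fibroblast-like cells with the Matrigel tag had 23.6% and those with no tag 21.3%. Those with the Cafum tag, which held more mast cell marker RNA than those with the Matrigel tag (22249 against 3908 CPM), had 22.0%. Non-cycling mast cell-like cells had 20.4% with the Cafum tag and 18.9% with no tag. The fibroblast-like clusters at resolution 1, cells of all depths included, differed in share. They had 22.3% (3257 cells), 28.5% (537 cells led by Cfd and Hp), 25.9% (262 cells led by Chrm3 and Ltbp1) and 15.9% (22 cells).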
